A study of Cucumis melo with 30 samples.

Results

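Only 2 of the 27427 genes of the deposited table, MELO3C021300 and MELO3C021171, rose at every step of fruit development in both melon cultivars by the rule used here. The genes were selected on their CPM, each gene's count per 1000000 counts of its library, averaged over the 3 libraries of a group. In each cultivar, the day 5 mean had to be 1 CPM or more, each later day had to reach at least 1.2 times the day before, and day 35 had to reach at least 4 times day 5. Because these means chose the genes, their levels and their changes from day to day are given as a description without a test, and only the differences between the cultivars were tested.

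The libraries were made from total RNA of melon fruit (Cucumis melo), of the kind called oriental melon, which has a thin skin. The 10 groups were the cultivars HDB-OF, here HDB, and YMR-WF, here YMR, each sampled 5, 15, 25, 30 and 35 days after anthesis, when the flower opens, with 3 libraries a group and 17299247 to 23261097 counts a library. No treatment separated the groups, and the labels do not say whether flesh and rind were separated, whether fruits were pooled, or whether the 3 libraries came from separate plants. The p-values below therefore rest on the spread between libraries, part of which may be technical. The labelled tissue could not be checked against marker genes, since the sources used here pair none of the identifiers with a name, position or sequence.

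A melon fruit first grows by cell division, then by cell expansion, and ripens last, when sugars collect in the flesh, pigments and aroma compounds are made and the wall softens, in part under the control of the hormone ethylene. Transcripts of ripening genes typically stay low during growth and come up late, whereas transcripts of growth genes typically peak early. A transcript that climbs evenly through growth and ripening alike would have neither of these courses. The rule does not ask for an even climb. At day 15 MELO3C021171 stood at 2.38% of its day 35 mean in HDB and at 20.9% in YMR. MELO3C021300 stood at 9.35% in HDB and 17.8% in YMR. What the products of the 2 genes do is not known from the sources used here.

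MELO3C021300 went from between 26 and 114 reads a library in the youngest fruit to 6486 or more in the oldest. In HDB its 3 libraries of day 5 held 54, 54 and 26 reads, or 3.0, 2.83 and 1.48 CPM. At day 15 they stood at 38.8, 35.5 and 36.0 CPM, and at day 25 at 226, 204 and 199 CPM. Each of these groups lay wholly above the one before. Day 30 gave 343, 340 and 285 CPM and day 35 gave 333, 417 and 430 CPM. Here the groups overlapped, because the lowest library of day 35 lay below the 2 highest of day 30. In YMR the libraries of day 5 held 114, 94 and 114 reads, or 5.93, 4.40 and 5.87 CPM. Day 15 gave 84.8, 82.5 and 79.3 CPM, and day 25 gave 198, 258 and 278 CPM. Day 30 stood at 318, 398 and 385 CPM, and day 35 at 439, 505 and 443 CPM. No day overlapped the next in this cultivar. In these bulk libraries a larger number of cells that make a transcript and more of it per cell cannot be told apart.

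On the log2 scale most of the climb of MELO3C021300 was over by day 25. Its mean CPM rose 15.1-fold in HDB and 15.2-fold in YMR from day 5 to day 15, and 5.71-fold and 2.98-fold from day 15 to day 25 (6.64-fold and 4.47-fold on TMM-scaled CPM, defined below). The next step brought a ratio of 1.54 in HDB and 1.5 in YMR, and the last step 1.22 and 1.26. The steps differ in length, so the pace is better read per day: in HDB it went from 0.39 log2 units a day over the first step through 0.25 and 0.12 to 0.06 over the last, and in YMR from 0.39 through 0.16 and 0.12 to 0.07. The rise thus slowed at every step in both cultivars. At day 25 the gene had reached 53.4% of its day 35 mean in HDB and 52.9% in YMR on CPM by library total. On TMM-scaled CPM the means of days 25 and 35 were 216.5 and 391.6 CPM in HDB and 322.9 and 509.7 CPM in YMR. The share reached at day 25 was then larger in YMR. Over the whole span it rose 161-fold in HDB and 85.7-fold in YMR by library total, and 185-fold and 113-fold on TMM-scaled CPM.

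MELO3C021171 followed another course, and a different one in each cultivar. In HDB it stood at 72.9, 85.8 and 67.1 CPM at day 5 and at 104.8, 94.5 and 94.5 CPM at day 15. By day 25 its libraries were at 1216, 1292 and 1504 CPM, by day 30 at 1752, 1922 and 2187 CPM, and by day 35 at 3952, 4967 and 3415 CPM. No day overlapped the next, and the jump between day 15 and day 25 set the early libraries far below the late ones. In YMR the libraries of day 5 held 48.5, 75.0 and 56.2 CPM, and those of day 15 held 284, 231 and 254 CPM. Day 25 followed with 444, 374 and 440 CPM, day 30 with 549, 461 and 514 CPM, and day 35 with 1328, 1249 and 1105 CPM. Here too each group lay above the one before, by the least between day 25 and day 30, where 443.7 CPM was the highest earlier and 461.2 CPM the lowest later value.

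The steepest part of the rise of MELO3C021171 fell between day 15 and day 25 in HDB and came first in YMR when taken as a ratio. In HDB the mean rose 1.30-fold, 13.7-fold, 1.46-fold and 2.11-fold over the 4 steps, so that 65.4% of the whole log2 change lay in the second. In YMR the ratios were 4.28, 1.64, 1.21 and 2.41, and the first step held 48.1% of the log2 change. On TMM-scaled CPM the second step of YMR had a ratio of 2.46. Per day, the last step of YMR, at 0.25 log2 units, was steeper than its first, at 0.21. In between it was 0.07 and 0.06. In HDB the pace went from 0.04 log2 units a day through 0.38 and 0.11 to 0.21. In both cultivars it was thus slower from day 25 to day 30 than in the step before and faster again in the last step, whereas MELO3C021300 only slowed. Over the whole span MELO3C021171 rose 54.6-fold in HDB and 20.5-fold in YMR by library total, and 62.2-fold and 27.1-fold on TMM-scaled CPM.

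**Figure D1:**
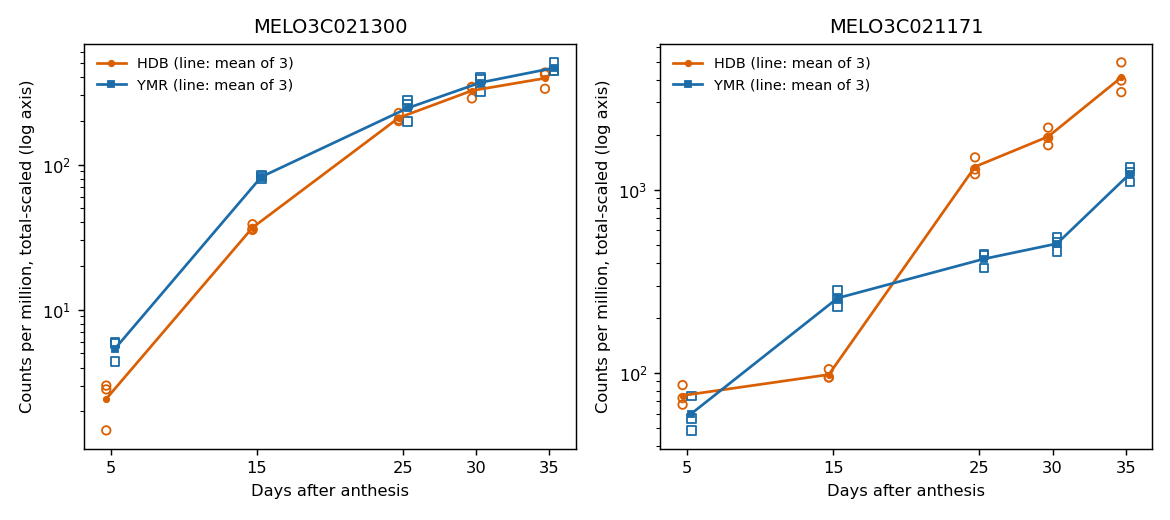
CPM (log axis) of MELO3C021300 (left) and MELO3C021171 (right) against days after anthesis, with HDB as orange circles and YMR as blue squares, open marks for the 3 libraries of a group and a line through the group means. MELO3C021300 flattens toward day 35 in both cultivars, and the lines of MELO3C021171 cross between day 15 and day 25, from 97.9 CPM in HDB and 256 CPM in YMR to 1338 and 419 CPM.

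Late in development MELO3C021171 was among the most counted genes of the HDB fruit. By read count, which is not corrected for gene length, it ranked between 2690 and 3597 in the HDB libraries of day 5 and between 9 and 16 in those of day 35, where it held 0.411% of all counts on average. In the YMR libraries its rank went from between 3325 and 4909 to between 72 and 92, with 0.123% of the counts at day 35. MELO3C021300 moved from between 14516 and 15871 to between 291 and 423 in HDB, and from between 12838 and 13719 to between 226 and 278 in YMR.

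Ordered by mean CPM by library total, the 10 groups of MELO3C021300 followed the day first and the cultivar second. On TMM-scaled CPM this order did not hold, since YMR at day 30 (436 CPM) lay above HDB at day 35 (392 CPM) and YMR at day 25 was level with HDB at day 30 (323 CPM each). HDB came before YMR at each day, from 2.43 ± 0.84 CPM (SD, n = 3) in HDB at day 5 to 462 ± 37 CPM in YMR at day 35. Neighbours whose libraries overlapped were HDB and YMR at day 25 (210 ± 14 and 245 ± 42 CPM), HDB and YMR at day 30 (323 ± 32 and 367 ± 43 CPM), and YMR at day 30 and HDB at day 35 (393 ± 53 CPM). The groups of MELO3C021171 were ordered otherwise. YMR at day 35, with 1227 ± 113 CPM, overlapped HDB at day 25, with 1338 ± 149 CPM, so the oldest YMR fruit had about the level that HDB had at day 25. The other overlapping neighbours were the day 5 groups, at 59.9 ± 14 CPM in YMR and 75.2 ± 9.6 CPM in HDB.

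All 3 later libraries lay above all 3 earlier ones in 15 of the 16 steps of the 2 genes, 7 of 8 for MELO3C021300 and 8 of 8 for MELO3C021171. Among the 18426 genes that passed a low-count filter, as both genes did, this held for 27.5%, 27.8%, 28.9% and 23.3% over the 4 steps of HDB and for 24.4%, 16.5%, 33.3% and 28.3% over those of YMR. The rule used the same libraries, so nothing is read from the difference.

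Both genes met the rule narrowly. The tightest condition for MELO3C021171 was the step from day 25 to day 30 in YMR, with a ratio of 1.212 where 1.2 was asked for, and for MELO3C021300 the step from day 30 to day 35 in HDB, with 1.218. Of the genes outside, 22 missed only 1 of the 12 conditions, each by more than 10%. Measured by the condition missed by the largest factor, the nearest genes outside were MELO3C020593 and MELO3C014363, which each missed 2 conditions. MELO3C020593 rose from 11.7 through 47.1, 58.1 and 68.8 to 83.9 CPM in HDB and from 6.75 through 13.9, 19.1 and 38.5 to 44.9 CPM in YMR, and its lowest ratio was 1.167 (YMR, day 30 to day 35). MELO3C014363 rose from 1.33 through 14.5, 17.4 and 39.5 to 46.8 CPM in HDB and from 1.75 through 16.4, 18.6 and 37.5 to 53.8 CPM in YMR, and its lowest ratio was 1.134 (YMR, day 15 to day 25). With any rise accepted at each step, a ratio of 1 in place of 1.2, 20 genes qualified. Among these 20 the rise of MELO3C021300 over the whole span was the largest in both cultivars, against medians of 18.6-fold in HDB and 7.75-fold in YMR, and that of MELO3C021171 came second in HDB and 7th in YMR. The rule used these same means and asked more of the 2 genes at each step, so nothing is read from these places.

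The choice of the 2 genes also depended on the scaling and on single libraries. TMM, a scaling that corrects for differences in library composition, gave mean factors of 0.759 for YMR at day 25, 0.843 at day 30 and 0.907 at day 35, against 0.969 to 1.005 for HDB at these days. On TMM-scaled CPM no gene met the rule. MELO3C021171 then had a ratio of 1.09 in YMR from day 25 to day 30, where 2 of the 3 later libraries lay above the earlier ones, and MELO3C021300 had 1.17 in YMR from day 30 to day 35. Both genes still had a higher mean at every later day, in 16 of 16 steps. The rule had asked for a ratio of 1.2 at each of these steps in the same libraries, so nothing is read from this count. On medians of the 3 libraries in place of means, no gene met the rule either. Leaving out 1 of the 30 libraries at a time kept MELO3C021300 in 26 cases and MELO3C021171 in 28. MELO3C021300 was lost without replicate 3 of HDB day 30 and without replicate 2 or 3 of HDB day 35, MELO3C021171 without replicate 2 of YMR day 25, and both without replicate 1 of YMR day 30, so that the number of genes was 1 in the first 4 cases and 0 in the last. Without replicate 3 of YMR day 5, the number was 3.

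**Figure D2:**
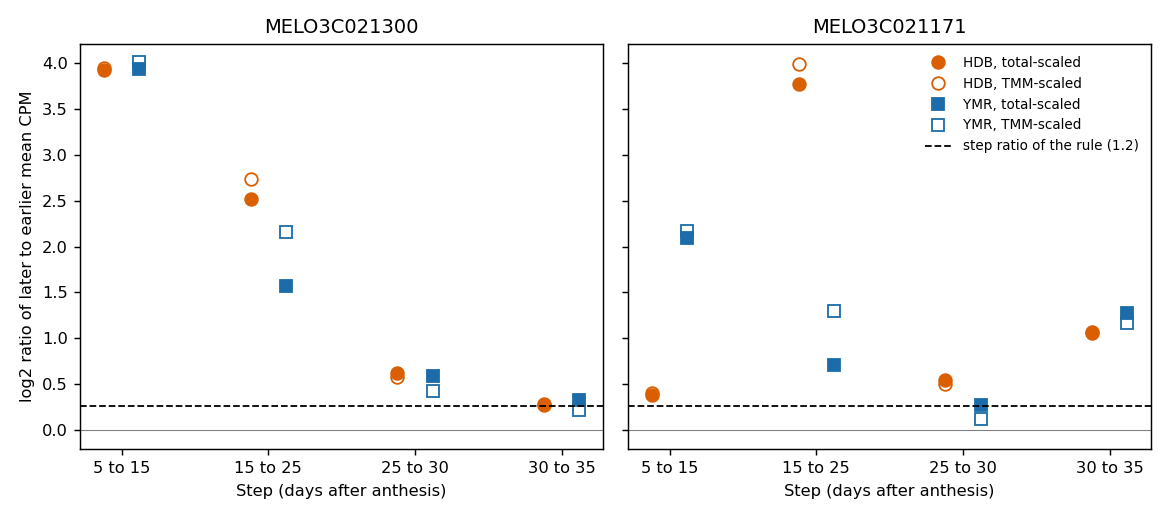
The log2 ratio of the later to the earlier group mean for each step, for MELO3C021300 (left) and MELO3C021171 (right), with HDB as circles and YMR as squares, filled for CPM by library total and open for TMM-scaled CPM; the dashed line is the ratio of 1.2 that the rule asks for. The lowest filled marks, at ratios of 1.218 and 1.212, sit on the line, and the open YMR marks at 1.17 and 1.09 lie below it.

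Few genes met the rule even in 1 cultivar. HDB had 26 such genes and YMR 47, and the 2 genes made up 7.69% of the first list and 4.26% of the second. Without the last step, 147 genes of HDB and 195 of YMR met the conditions. Among all 27427 genes, the ratio of the last step alone was met by 6143 in HDB and 7475 in YMR. Most genes of the table thus missed it, so nothing is read from how many genes of these lists missed it. Of the 45 genes that met the rule in YMR but not in HDB, 43 missed the last step in HDB, and 32 of the 45 had a lower mean there at day 35 than at day 30. Of the 24 that met it in HDB but not in YMR, 18 missed the last step in YMR, and 11 had a lower mean at day 35 than at day 30. MELO3C021300 and MELO3C021171 had ratios of 1.22 and 2.11 in HDB and of 1.26 and 2.41 in YMR over that step. The mirrored rule for steady falls was met by 143 genes in HDB, 91 in YMR and 27 in both. All these lists rest on CPM by library total. On TMM-scaled CPM the rule for rises was met by 36 genes in HDB, 53 in YMR and 0 in both. Falls were not counted on that scale, so nothing is read from the larger number of falls.

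**Figure D3:**
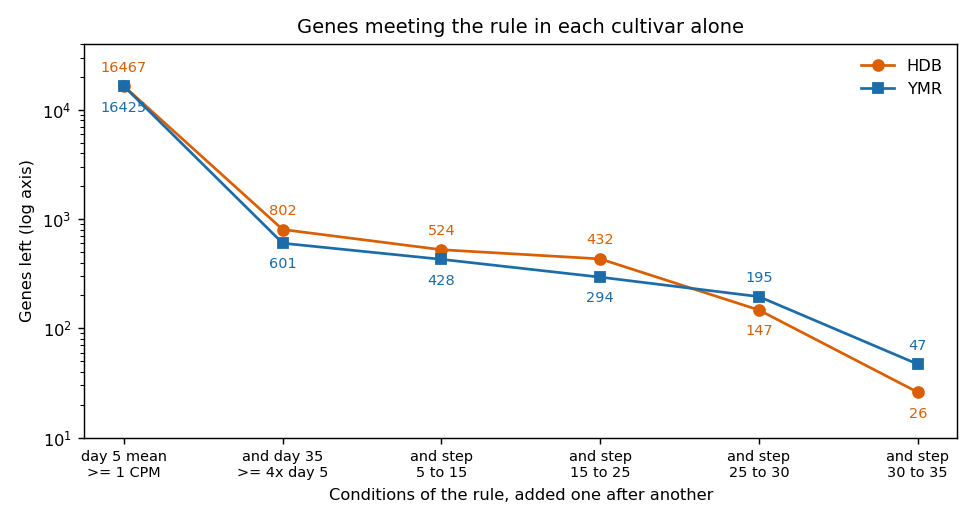
Genes left (log axis) as the conditions of the rule are added one after another in HDB (orange circles) and YMR (blue squares), from the day 5 minimum through the 4-fold span to the 4 steps of at least 1.2-fold. The lists shrink from 802 and 601 genes after the span condition to 26 and 47 after the last step. The conditions were added in a fixed order, and among all 27427 genes the last step alone was met by 6143 in HDB and 7475 in YMR.

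The cultivars were then compared at each day, which the rule had not done, with edgeR's quasi-likelihood test in 1 fit to all libraries and Benjamini-Hochberg adjustment over the 18426 genes. These differences are on the log2 scale after TMM scaling, as YMR minus HDB. MELO3C021300 was higher in YMR at days 5 and 15, with smaller differences later. MELO3C021171 was higher in YMR at day 15 and lower in YMR from day 25 on.

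At day 5, 1 of the 2 genes differed, against 21.8% of all genes tested. MELO3C021300 was 2.11-fold higher in YMR, a log2 difference of 1.08 (SE 0.20, edgeR adjusted p = 0.00041). Its libraries did not overlap, with 1.48 to 3.0 CPM in HDB and 4.40 to 5.93 CPM in YMR; libraries of the cultivars were apart in this way for 35.1% of all genes. With only the 6 libraries of this day in the fit, the adjusted p was 0.051 for a log2 difference of 1.10. MELO3C021171 had overlapping libraries and a log2 difference of -0.40 (SE 0.15, edgeR adjusted p = 0.065). DESeq2 called it (adjusted p = 0.038 for -0.40), as did edgeR without replicate 2 of YMR day 5 (adjusted p = 0.012 for -0.58).

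At day 15 both genes were higher in YMR, and 40.9% of all genes differed. MELO3C021300 was 2.22-fold higher, with a log2 difference of 1.15 (SE 0.17, edgeR adjusted p = 9.8e-06). MELO3C021171 was 2.58-fold higher, with a log2 difference of 1.37 (SE 0.15, edgeR adjusted p = 4.5e-07). With only the 6 libraries of this day in the fit, the edgeR adjusted p was 0.00575 for MELO3C021300 and 0.00441 for MELO3C021171. Neither gene's libraries overlapped, as was so for 39.6% of all genes.

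At day 25 both genes differed again, as did 48.3% of all genes, but now in opposite directions. MELO3C021171 was 2.50-fold lower in YMR, with a log2 difference of -1.32 (SE 0.15, edgeR adjusted p = 1.4e-07), and its libraries were wholly apart, like those of 65.1% of all genes. MELO3C021300 was 1.49-fold higher in YMR, with a log2 difference of 0.58 (SE 0.16, edgeR adjusted p = 0.005). On TMM-scaled CPM its libraries were apart, with at most 234.1 CPM in HDB and at least 254.8 CPM in YMR. The share of all genes apart on TMM-scaled CPM was not counted. On CPM by library total its libraries overlapped, and with total counts in place of TMM the difference was 0.22 (edgeR adjusted p = 0.24). Under that scaling the median over all genes at day 25 went from 0.03 to -0.28.

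At day 30 both genes were called, against 33.4% of all genes. MELO3C021171 was 3.25-fold lower in YMR, with a log2 difference of -1.70 (SE 0.16, edgeR adjusted p = 8.7e-09), and its libraries, at 1752 to 2187 CPM in HDB and 461 to 549 CPM in YMR, did not overlap, as for 52.1% of all genes. The libraries of MELO3C021300 overlapped on CPM by library total. On TMM-scaled CPM they were apart, with at most 348.4 CPM in HDB and at least 375.1 CPM in YMR. The share of all genes apart on that scale was not counted. MELO3C021300 was 1.35-fold higher in YMR, with a log2 difference of 0.43 (SE 0.16, edgeR adjusted p = 0.042). That call was lost with total counts (0.19, adjusted p = 0.37), with no filter on low counts (0.42, 0.058) and with a replicate block (0.43, 0.052). It was also lost without replicate 1, 2 or 3 of HDB day 30 (0.49, 0.44 and 0.37, adjusted p = 0.053, 0.083 and 0.14) and without replicate 2 or 3 of YMR day 30 (0.34 and 0.41, adjusted p = 0.18 and 0.11).

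At day 35, 1 of the 2 genes was called, against 47.7% of all genes. MELO3C021171 was 3.02-fold lower in YMR, with a log2 difference of -1.59 (SE 0.15, edgeR adjusted p = 1.1e-08). Its HDB libraries held 3415 to 4967 CPM and its YMR libraries 1105 to 1328 CPM. MELO3C021300 had a log2 difference of 0.38 (SE 0.16, edgeR adjusted p = 0.057), with a 95% interval from 0.05 to 0.71 before adjustment. By library total the YMR libraries of both genes lay apart from those of HDB, as for 58.2% of all genes. RLE size factors, DESeq2 and a fit to the 6 libraries of this day called the difference of MELO3C021300 (0.44, 0.44 and 0.39, adjusted p = 0.032, 0.011 and 0.025), as did edgeR without replicate 3 of HDB day 35 (0.47, 0.043).

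**Figure D4:**
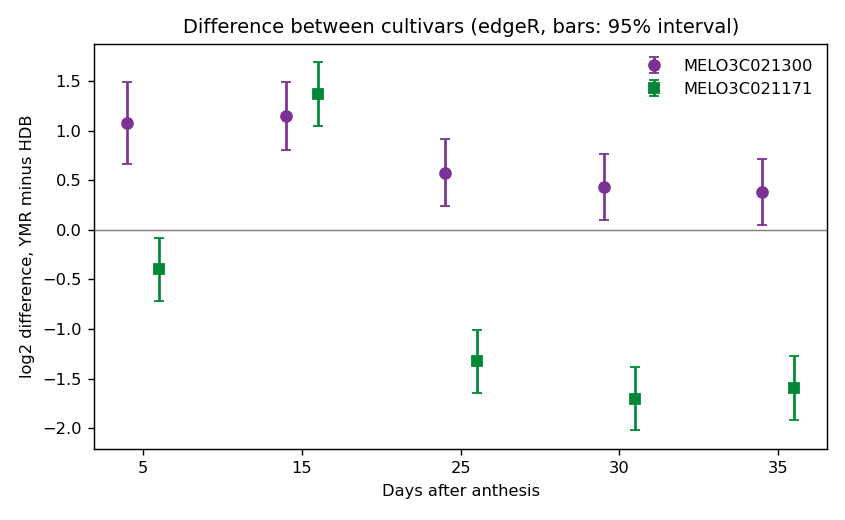
The log2 difference between cultivars, YMR minus HDB, at each day after anthesis for MELO3C021300 (purple circles) and MELO3C021171 (green squares), from the edgeR fit with 95% intervals before adjustment for multiple tests. The circles come down from 1.08 at day 5 to 0.38 at day 35, and the squares go from -0.40 at day 5 to 1.37 at day 15 and -1.59 at day 35.

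Whether the rise itself differed between the cultivars was tested as an interaction, the log2 change in YMR minus that in HDB. The rule set a minimum for the rise in each cultivar and none for the difference. It did use the same changes, so this test is not wholly apart from the choice of the genes. From day 5 to day 35 the rise was smaller in YMR for both genes, where 36% of all genes had an interaction. For MELO3C021171 the difference was -1.20 (SE 0.22, edgeR adjusted p = 0.00013), a rise 2.29-fold smaller in YMR. For MELO3C021300 it was -0.70 (SE 0.26, edgeR adjusted p = 0.036), a rise 1.62-fold smaller. The latter call was lost with RLE size factors (-0.65, adjusted p = 0.057) and in a fit to the 4 compared groups (-0.71, 0.079). It was lost too without any of 7 single libraries, replicate 3 of HDB day 5 (-0.45, 0.15), replicates 1 and 3 of YMR day 5 (-0.63 and -0.62, 0.084 and 0.087), replicates 2 and 3 of HDB day 35 (-0.66 and -0.61, 0.076 and 0.086) and replicates 1 and 3 of YMR day 35 (-0.67 and -0.67, 0.066 and 0.067). In HDB the day 5 level of this gene rests on 134 reads over the 3 libraries, 26 of them in replicate 3.

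By single steps, the rise of MELO3C021171 differed between the cultivars over the first and the second, and no step was called for MELO3C021300. From day 5 to day 15 the interaction of MELO3C021171 was 1.77 (SE 0.22, edgeR adjusted p = 4.3e-06), a rise 3.40-fold larger in YMR. In a fit to the 4 compared groups it was 1.73 (edgeR adjusted p = 0.00215). The interaction of MELO3C021300 was 0.07 (SE 0.27, edgeR adjusted p = 0.88), so 1 of the 2 genes was called, against 34.8% of all genes. From day 15 to day 25 MELO3C021171 had an interaction of -2.69 (SE 0.22, edgeR adjusted p = 3.8e-09), a rise 6.47-fold larger in HDB. MELO3C021300 had -0.57 (SE 0.23, edgeR adjusted p = 0.0501), so again 1 of 2 was called, against 41.4% of all genes. The interaction of MELO3C021300 was called with RLE size factors (-0.59, adjusted p = 0.047), with DESeq2 (-0.59, 0.02), in a fit to the 4 compared groups (-0.58, 0.033) and with total counts (-0.94, 0.0013), under which the median of all genes went from 0.04 to -0.31. It was also called by edgeR without replicate 1 of HDB day 15 (-0.65, 0.041), without replicate 3 of YMR day 15 (-0.62, 0.049) and without replicate 2 of YMR day 25 (-0.64, 0.0496).

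From day 25 to day 30 no interaction of the 2 genes was called by edgeR, where 30% of all genes had one, and none had an unadjusted p under 0.05 or was called by DESeq2. The estimates were -0.14 for MELO3C021300 (95% interval -0.62 to 0.33) and -0.38 for MELO3C021171 (-0.82 to 0.06). From day 30 to day 35 the outcome was the same by each of these counts, where 33.1% of all genes had an interaction. MELO3C021300 had -0.05 (95% interval -0.53 to 0.42) and MELO3C021171 had 0.11 (-0.33 to 0.55). Each of these 4 intervals includes 0 and also differences of 0.33 or more on the log2 scale, so a like rise in both cultivars is not shown.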

How the data were processed

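The authors deposited raw read counts, whole numbers for 27427 gene identifiers in 30 columns, which were assigned to samples by title. The submitters' processing notes name the aligner HISAT2 and the read counter HTSeq, with no version; for build, annotation, strand and options the sources used here say nothing. None of the identifiers (0) matched a table of 28628 melon genes of the assembly USDA_Cmelo_AY_1.0, so no pathway or tissue marker list could be applied, and reads shared with near-identical, overlapping or antisense genes could not be recognised.

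CPM for the rule was count × 1000000 / library total. The 2 genes, the lists and the tests were chosen with earlier results of these data known. The genes named in the text are the 2 that met the rule and the 2 nearest outside it, measured by the smallest log2 ratio of a value to its threshold.

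Cultivar differences and interactions were tested with edgeR 4.0.16 (limma 3.58.1, R 4.3.3): filterByExpr (minimum count 10, minimum total 15; 18426 genes kept), TMM scaling, a mean for each of the 10 groups, robust dispersions (biological coefficient of variation 19.1%) and two-sided quasi-likelihood F tests, called at a Benjamini-Hochberg adjusted p under 0.05. Standard errors are the absolute log2 difference over the square root of F. Alternatives were RLE factors, total counts, DESeq2 1.42.0, no filter, a replicate block, fits to the compared groups alone, each library left out, and changes to the rule. No replicate pair was identical (chi-square per degree of freedom 7.35 to 118), and each library was counted as 1 sample. That does not show that the libraries came from separate fruits or plants.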

Additional observations from a re-analysis of the deposited data

Results flagged for a closer look

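The changes of 2 genes differed between the cultivars by a test of the difference itself, with values as log2 change in YMR minus log2 change in HDB. MELO3C021171 differed by -1.2 from day 5 to day 35, by 1.77 from day 5 to day 15 and by -2.69 from day 15 to day 25. MELO3C021300 differed by -0.7 from day 5 to day 35, but this call was lost with RLE factors and with only the compared groups. It was also lost when any 1 of 7 single libraries was left out.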

How the results depend on the processing

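The rule gave 2 genes, but 0 with TMM-scaled CPM, 0 with medians, 0 with a step ratio of 1.5, 20 with a step ratio of 1 and 4 with no minimum at day 5; leaving out 1 library gave 0 to 3. With no gene under TMM scaling, the tests could not be repeated on genes chosen that way.

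For MELO3C021171 the log2 differences at days 15 to 35 and the interactions over the whole span and the first and second steps kept their direction and call under every alternative run. Leaving out 1 library gave 1.32 to 1.46 at day 15, -1.39 to -1.22 at day 25, -1.76 to -1.59 at day 30, -1.7 to -1.41 at day 35, -1.33 to -1.02 for the whole span, 1.63 to 1.95 for the first step and -2.78 to -2.59 for the second. At day 5 it gave -0.577 to -0.264, and DESeq2 called -0.396. The interaction of the third step, -0.376, ranged from -0.477 to -0.268 and that of the last step, 0.106, from -0.00226 to 0.296.

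For MELO3C021300 leaving out 1 library gave 0.829 to 1.23 at day 5, 0.337 to 0.525 at day 30, 0.267 to 0.469 at day 35, -0.851 to -0.448 for the whole span, -0.0836 to 0.319 for the first step, -0.646 to -0.397 for the second, -0.289 to -0.0392 for the third and -0.166 to 0.0688 for the last. Calls were lost with only the compared groups at day 5 (1.1) and for the whole span (-0.708), with total counts at days 25 (0.221) and 30 (0.186), with no filter (0.423) at day 30, and with RLE factors for the whole span (-0.646). Calls were gained at day 35 with RLE factors (0.438), DESeq2 (0.438) and only the compared groups (0.388), and for the second step with RLE factors (-0.591), DESeq2 (-0.591), total counts (-0.94) and only the compared groups (-0.584). The last step turned to 0.0481 with total counts. The fit with only the compared groups uses fewer samples, but the cause of its shifts, like that of the other shifts, was not tested.

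The labels tie equal replicate numbers to no common fruit, plant or date, and 28 of 135 same-numbered pairs of libraries had deviations from their group means that correlated over 0.1 (median -0.02). For pairs with unequal numbers the median was -0.00184, and those over 0.1 were not counted. With the replicate number as a block, the day 30 difference of MELO3C021300 was 0.432 and no longer called (adjusted p = 0.052), and no other call of the 2 genes changed. Over all genes the fit to the 6 libraries of a day called 2529 at day 5 and 3459 at day 15, against 4012 and 7537, and 9354, 6524 and 8863 at days 25, 30 and 35, against 8893, 6159 and 8784. For the interactions over the 4 steps, fits to the compared groups called 4028, 6602, 6698 and 6997 genes, against 6406, 7629, 5527 and 6106.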
